A study of Mus musculus with 18 samples.

Results

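Monocyte subset and recruitment markers are described here across the spleens of control, alginate oligosaccharide (AOS)-fed, streptozotocin (STZ)-diabetic and microbiota-transplanted mice. The 10 markers, Ccr2, Ly6c2, Cd14, Cx3cr1, Nr4a1, Spn, Treml4, Ace, Csf1r and Itgam, were taken by gene symbol from the 19320 genes of the deposited RPKM table (read density, corrected for gene length and library size). All 10 were found and all 10 passed the filter on low values, as did 12905 genes in all.

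Monocytes leave the bone marrow as classical cells, which carry much Ly6C and the chemokine receptor CCR2 and follow CCL2-type ligands into inflamed tissue. Some of them turn, under the nuclear receptor NR4A1, into patrolling cells, which carry little Ly6C and much CX3CR1 and crawl along the vessel wall. The spleen holds a reserve of monocytes in its red pulp beside resident macrophages, which share several of the same genes. Accordingly, 3 members were treated as classical (Ccr2, Ly6c2 and Cd14), 5 as patrolling (Cx3cr1, Nr4a1, Spn, Treml4 and Ace) and 2 as shared by both (Csf1r and Itgam).

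All animals were ICR mice, male per the study's methods, killed at 10 weeks of age, with 3 spleen libraries in each of 6 groups (18 libraries). Con was the control, given saline per the study's methods, and A10 received AOS (a short sugar chain made from alginate) at 10 mg/kg. STZ received streptozotocin, a toxin of the insulin-producing beta cells used to model type 1 diabetes, and STZ-A10 received both. A10-FMT received STZ and gut microbiota of donors dosed with AOS at 10 mg/kg, and Con-FMT received STZ and microbiota of control donors. The donor material was small-intestinal content pooled within a donor group, so the recipients of a group shared 1 inoculum, and every transplanted animal had also been given STZ. No label ties a library to a named animal, so that p-values measure the spread between these libraries, part of which may be technical.

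Library totals are unknown because only RPKM was available, and the precision of a value rests on the spread of 3 libraries. Between 11532 and 12893 genes reached 1 RPKM per library. Globins took 10.4% to 42.7% of the summed RPKM, and the median log2 level of the tested genes ran from 3.32 in A10-FMT replicate 3 to 3.77 in STZ-A10 replicate 1. A10-FMT replicate 3 stood apart, with 4.96 RPKM of the T cell gene Cd3e (15.8 to 41.9 elsewhere) and 175 RPKM of the liver gene Alb. Con replicate 1 stood apart in neutrophil genes, with a summed level of 16074 RPKM over 14 markers against 472 to 4399 in the other 17 libraries. Acinar pancreas markers differed between the groups, with sums of 22.1 to 1207 RPKM in Con and 34.2 to 446 in A10. Their sums were 958 to 4568 RPKM in STZ and 4456 to 7228 in STZ-A10. In A10-FMT they were 131 to 14669 RPKM and in Con-FMT 1387 to 2283. The part of pancreas tissue in the STZ comparisons was not tested. Member results that moved most with single libraries are given with and without them.

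The plot of levels by group sets the 10 markers side by side. Being scaled per length, the levels can be compared between genes. Csf1r, the receptor for the macrophage growth factors CSF1 and IL-34, had the highest median over the 18 libraries, 60.6 RPKM, followed by Ly6c2 with 45.5 and Spn with 34.3. The lowest medians were those of Ccr2 (5.85 RPKM), Cx3cr1 (6.30 RPKM) and Cd14 (6.53 RPKM). The spread over all libraries was widest for Ly6c2, whose highest library exceeded its lowest 11.3-fold, and narrowest for Spn, at 1.65-fold.

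**Figure D1:**
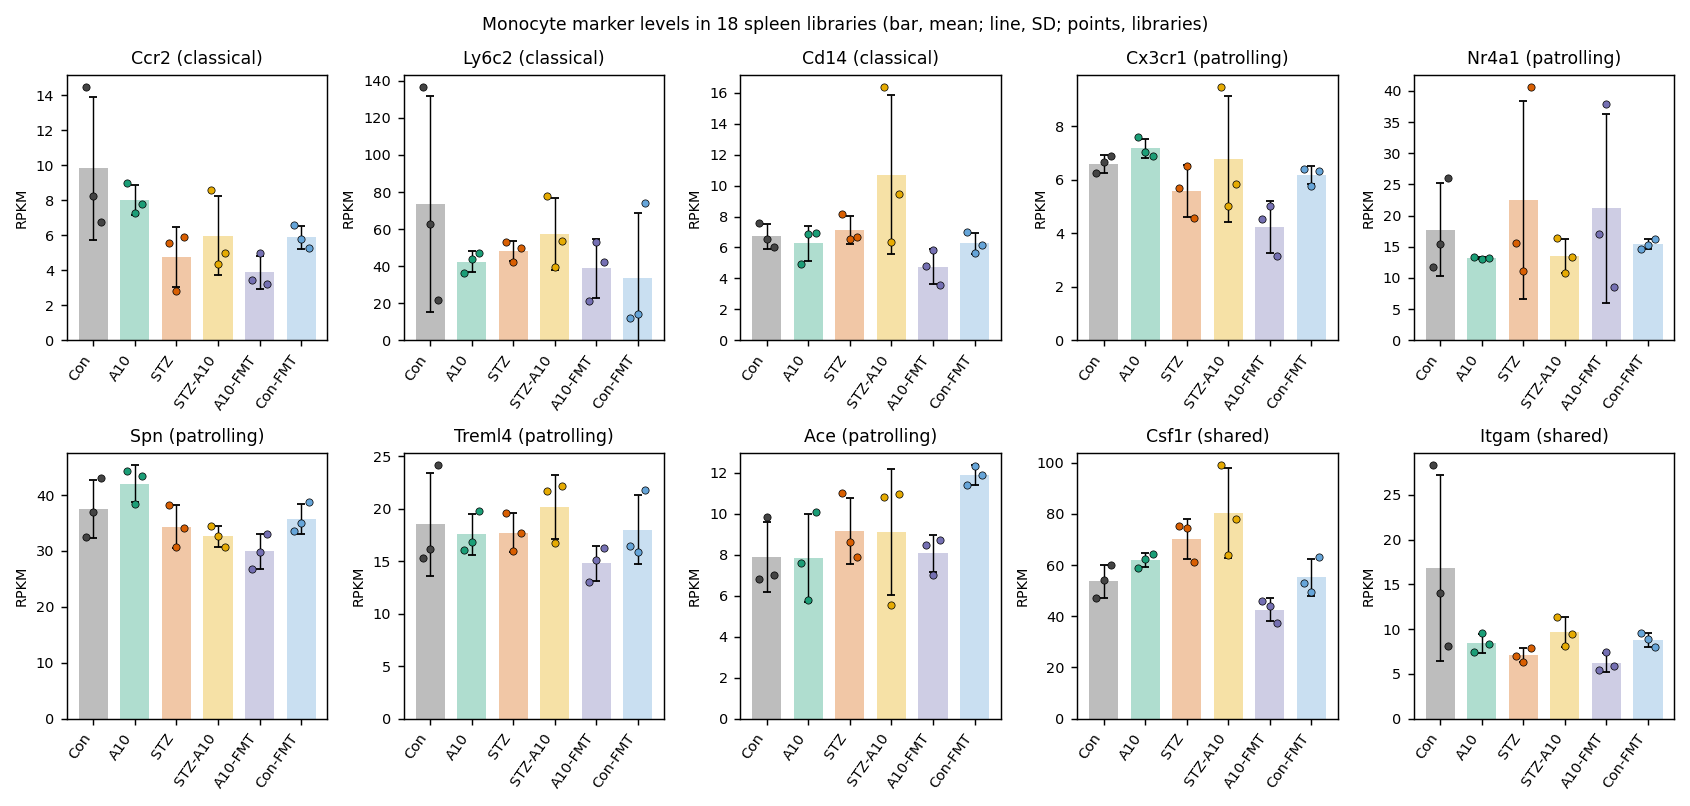
RPKM (y axis, from 0) of each of the 10 markers in the 6 groups. Bars are means, vertical lines SD over 3 libraries and points single libraries, and the lower end of the Con-FMT line for Ly6c2 is cut at 0. Ccr2 sits highest in Con and A10, Csf1r highest in STZ and STZ-A10, and Ly6c2 and Nr4a1 spread widely within groups.

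Ccr2 (chr9:124101950-124113557, plus strand), the receptor for CCL2 through which classical monocytes are recruited, was at 14.5, 8.26 and 6.74 RPKM in the Con libraries and at 8.97, 7.29 and 7.78 in A10. With STZ it was at 5.56, 2.80 and 5.90 RPKM, and with STZ and AOS at 8.57, 4.38 and 5. After transplantation it was at 3.47, 4.97 and 3.23 RPKM in A10-FMT and at 6.59, 5.79 and 5.29 in Con-FMT. Of the 12 libraries given STZ, 11 lay below all 6 without STZ, and the exception was STZ-A10 replicate 1. The groups ran from Con through A10, STZ-A10, Con-FMT and STZ to A10-FMT, and each overlapped its neighbour in that order. In whole-spleen RNA, fewer cells carrying a transcript and less transcript per cell cannot be told apart.

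Ly6c2 (chr15:75108158-75111970, minus strand) encodes the Ly6C surface protein by which classical monocytes are sorted. It was at 137, 62.9 and 21.6 RPKM in Con, a wide spread within a single group, and at 36.5, 43.7 and 47.3 in A10. In STZ it was at 52.9, 42.0 and 49.7 RPKM and in STZ-A10 at 78.0, 39.7 and 53.8. In A10-FMT it was at 21.1, 52.8 and 42.3 RPKM, and in Con-FMT at 12.1, 14.2 and 74.0. The means ranged from 73.7 ± 58.2 RPKM (SD, n = 3) in Con to 33.4 ± 35.1 in Con-FMT, and all groups overlapped.

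Ly6c2 has a close copy, Ly6c1 (chr15:75044018-75048830, minus strand), which endothelial and lymphoid cells use. Over the 396 bases of their coding sequences (GENCODE M21 annotation of GRCm38) the pair differed at 9, an identity of 97.7%, and 316 of 347 windows of 50 bases (91.1%) differed at 2 bases or fewer. The study's methods allowed up to 2 mismatches per aligned read and give no read length for these libraries. A read that matches either copy better could still be placed, so the windows do not count unplaceable reads. How reads were split between the copies is not known. The first 180 coding bases of each are shown because they carry 6 of the differing bases, given in capitals:
Ly6c1: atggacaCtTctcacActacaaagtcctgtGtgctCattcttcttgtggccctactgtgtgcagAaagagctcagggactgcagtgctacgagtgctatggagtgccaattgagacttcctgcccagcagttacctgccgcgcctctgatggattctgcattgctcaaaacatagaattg
Ly6c2: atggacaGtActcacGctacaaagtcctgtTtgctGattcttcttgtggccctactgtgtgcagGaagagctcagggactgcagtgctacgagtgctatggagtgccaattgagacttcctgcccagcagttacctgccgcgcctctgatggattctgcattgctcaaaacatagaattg
Ly6c1 had another pattern than Ly6c2 in Con, where it was at 25.9, 31.4 and 29.1 RPKM. In STZ it was at 47.8, 55.9 and 35.6 RPKM. In Con replicate 1, where Ly6c2 was highest, Ly6c1 was the lowest of the 3.

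Cd14, the lipopolysaccharide co-receptor of monocytes and macrophages, was at 7.58, 6.52 and 6.04 RPKM in Con and 4.95, 6.90 and 6.93 in A10. It was at 8.18, 6.54 and 6.70 RPKM in STZ and at 16.4, 6.33 and 9.44 in STZ-A10. It was at 4.82, 5.86 and 3.59 RPKM in A10-FMT and at 6.97, 5.63 and 6.18 in Con-FMT. STZ-A10 replicate 1 held the highest Cd14 of all libraries, and all 3 A10-FMT libraries lay below all 6 of STZ and STZ-A10.

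Cx3cr1 (chr9:119901616-120069879, minus strand), the receptor for fractalkine that patrolling monocytes carry at high density, varied little in Con (6.24, 6.68 and 6.90 RPKM) and A10 (7.60, 7.03 and 6.90 RPKM). It was at 5.70, 6.52 and 4.58 RPKM in STZ and at 9.47, 5.01 and 5.85 in STZ-A10. It was at 4.53, 5.01 and 3.16 RPKM in A10-FMT and at 6.42, 5.78 and 6.35 in Con-FMT. A10-FMT was the lowest group and did not overlap Con, A10 or Con-FMT.

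Nr4a1 (chr15:101254269-101274795, plus strand), the nuclear receptor on which patrolling monocytes depend, is also an immediate early gene that many cell types switch on within minutes of a stimulus. It was at 11.7, 15.5 and 26.1 RPKM in Con and at 13.4, 13.1 and 13.2 in A10. In STZ it was at 15.5, 11.2 and 40.6 RPKM and in A10-FMT at 17.1, 37.9 and 8.46. The other groups were narrow, with 16.4, 10.9 and 13.3 RPKM in STZ-A10 and 14.6, 15.3 and 16.2 in Con-FMT. Thus 3 libraries of 3 groups held the 3 highest values and no group stood apart. The same 3 libraries were the 3 highest for Fos, at 11.8 RPKM in Con replicate 3, 8.15 in STZ replicate 3 and 36.7 in A10-FMT replicate 2, against 1.71 to 4.66 in the other 15.

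The promoter of Nr4a1 is shown because its level moved with those genes (RefSeq start site, GRCm38.p6, chr15:101266596-101266895, plus strand, 250 bases before the start and 50 after). TGCGTCA, a form of the element bound by the cyclic AMP-responsive CREB and ATF factors, was searched on both strands, and its 4 matches, all on the strand printed, are in capitals:
Nr4a1: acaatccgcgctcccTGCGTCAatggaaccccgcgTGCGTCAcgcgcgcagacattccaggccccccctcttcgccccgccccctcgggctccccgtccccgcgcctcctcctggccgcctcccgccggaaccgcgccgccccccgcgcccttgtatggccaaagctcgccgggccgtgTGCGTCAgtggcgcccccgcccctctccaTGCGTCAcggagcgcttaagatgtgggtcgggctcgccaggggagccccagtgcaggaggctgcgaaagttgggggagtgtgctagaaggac
Of 32851 promoter windows of that length, 2.12% held TGCGTCA at least once, 0.0396% at least 2 times and only 1 window, 0.00304%, at least 3 times, which was that of Nr4a1. GAGGAA, the core bound by the myeloid factor PU.1, was searched in the same way and overlapped no TGCGTCA match in that window. Of the 8 members with a promoter entry, Itgam held GAGGAA 3 times, Ly6c2, Treml4 and the first start of Ace 2 times each, and Ccr2, Cx3cr1, Nr4a1, Spn and the inner start of Ace 0 times, where 28.3% of all windows held it at least once and 0.685% at least 3 times. These are matches of letters, and binding was not measured. No other form of the CREB and ATF element was counted. The rarity of TGCGTCA is no independent test, since the word was picked to be shown in the Nr4a1 promoter. Why the level of Nr4a1 moved was not tested.

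Spn (chr7:127132232-127137823, minus strand), which encodes the sialoprotein CD43 of patrolling monocytes and of T cells, was the steadiest member. It was at 32.6, 37.0 and 43.0 RPKM in Con, at 44.4, 38.3 and 43.5 in A10 and at 38.3, 30.7 and 34.1 in STZ. It was at 34.4, 32.6 and 30.7 RPKM in STZ-A10, at 26.8, 29.9 and 33.1 in A10-FMT and at 33.6, 34.9 and 38.7 in Con-FMT. The A10 libraries all lay above those of STZ-A10, A10-FMT and STZ.

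Treml4 (chr17:48264295-48275360, plus strand), a TREM-like receptor of patrolling monocytes and of spleen macrophages and dendritic cells, overlapped between neighbours throughout. Its group means ran only from 14.8 ± 1.64 RPKM in A10-FMT to 20.2 ± 3.04 in STZ-A10 (SD, n = 3). Single libraries ran from 13.01 RPKM in A10-FMT replicate 1 to 24.1 in Con replicate 3.

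Ace (chr11:105967945-105989964, plus strand), angiotensin-converting enzyme, a surface peptidase of patrolling monocytes and endothelium, was highest in Con-FMT, at 11.4, 12.4 and 11.9 RPKM. No library of another group reached that range, the next being STZ replicate 1 at 11 RPKM. Elsewhere it was at 6.82, 9.87 and 7.03 RPKM in Con, at 7.61, 5.81 and 10.1 in A10, at 11, 8.62 and 7.91 in STZ, at 10.8, 5.57 and 10.95 in STZ-A10 and at 8.49, 7.03 and 8.71 in A10-FMT. Ace has a testis form made from an inner start, and germ cell markers were not absent from these spleens. They summed to 295 RPKM in Con replicate 2 and to at most 35.1 in the other 17 libraries, while Ace was at 9.87 RPKM in Con replicate 2.

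Csf1r, on which monocytes and macrophages depend for survival, was at 47.0, 54.0 and 60.0 RPKM in Con and at 58.9, 62.5 and 64.4 in A10. It was at 75.1, 74.5 and 61.1 RPKM in STZ and at 98.9, 64.0 and 78.1 in STZ-A10. After transplantation it was at 45.8, 44.2 and 37.5 RPKM in A10-FMT and at 53.0, 49.4 and 63.2 in Con-FMT. All STZ libraries lay above all Con libraries, and all A10-FMT libraries lay below every library of the other groups. Con-FMT overlapped Con, A10 and STZ.

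Itgam (chr7:128062640-128118491, plus strand), the integrin chain CD11b of monocytes, neutrophils and natural killer cells, was at 28.3, 14.01 and 8.11 RPKM in Con. It was at 7.42, 9.51 and 8.29 RPKM in A10, at 6.99, 6.32 and 7.87 in STZ and at 11.4, 8.12 and 9.47 in STZ-A10. It was at 5.39, 7.42 and 5.86 RPKM in A10-FMT and at 9.56, 8.90 and 7.95 in Con-FMT. The order of the Con libraries followed their neutrophil sums, which were 16074, 4399 and 862 RPKM, and the share of neutrophils in Itgam was not tested.

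Differences between groups were tested with limma on log2(RPKM + 1) over the 12905 genes, where fold changes of low genes are understated, and called at a Benjamini-Hochberg adjusted p under 0.05. STZ against Con asks how the spleens of mice given STZ differed. Direct effects of the toxin and those of diabetes cannot be told apart, since every diabetic group received STZ. The lowest adjusted p of the members was 0.140, so 0 of 10 were called, where 21 genes or 0.163% of those tested were. At an unadjusted p under 0.05 stood 3 of 10 members, where 11.1% of the tested genes did, and in 3 of 10 the libraries of the groups did not overlap, as in 12.8% of the tested genes. Ccr2 was lower by 0.90 on the log2 scale (SE 0.27, adjusted p = 0.168), with all STZ libraries below all Con libraries, and by 0.61 without Con replicate 1. Itgam was lower by 0.98 (SE 0.28, adjusted p = 0.140), also without overlap. That difference shrank to 0.54 without Con replicate 1, the library rich in neutrophil transcripts. It grew to 1.38 without Con replicate 3, where Itgam was called. Csf1r was higher by 0.38 (SE 0.15, adjusted p = 0.323), again without overlap. The other 7 members lay between -0.25 for Ly6c2 and 0.20 for Ace.

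The same question was asked in animals fed AOS, with separate libraries, by STZ-A10 against A10. None of the 10 members was called (lowest adjusted p = 0.257), where 0.0542% of the tested genes were, and 3 of 10 stood at an unadjusted p under 0.05, against 10.2%. Spn was lower by 0.36 (SE 0.12, adjusted p = 0.257), and it was the 1 member of 10 without overlap, against 22.6% of the tested genes. Cd14 was higher by 0.61 (SE 0.24, adjusted p = 0.367), and by 0.28 without STZ-A10 replicate 1. Csf1r was higher by 0.35 (SE 0.15, adjusted p = 0.433), close to its 0.38 in STZ against Con, and by 0.19 without STZ-A10 replicate 1. Ccr2 differed by -0.41 (SE 0.27), with a 95% confidence interval of -0.99 to 0.17. Across both tests of STZ, 7 of 10 members had the same sign, which is 70% where 67.5% of all tested genes did. The interaction of STZ and AOS called 0 of 10 members and 0 of 12905 genes. It stood at an unadjusted p under 0.05 in 2.86% of the genes and 1 of 10 members, Itgam (1.16, SE 0.40, adjusted p = 1), which came to 0.72 without Con replicate 1.

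The effect of AOS was asked with and without STZ. In A10 against Con, 0 of 10 members were called, against 0.00775% of the tested genes, and none was without overlap, against 16.5%. Itgam was the 1 member at an unadjusted p under 0.05, against 5.25% of the genes, and was lower by 0.76 (SE 0.28, adjusted p = 0.745), or by 0.32 without Con replicate 1. In STZ-A10 against STZ, 0 of 10 members were called, against 0.00775% of the genes, and 0 of 10 stood at an unadjusted p under 0.05, against 2.93%. The members lay between -0.50 for Nr4a1 and 0.44 for Cd14.

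**Figure D2:**
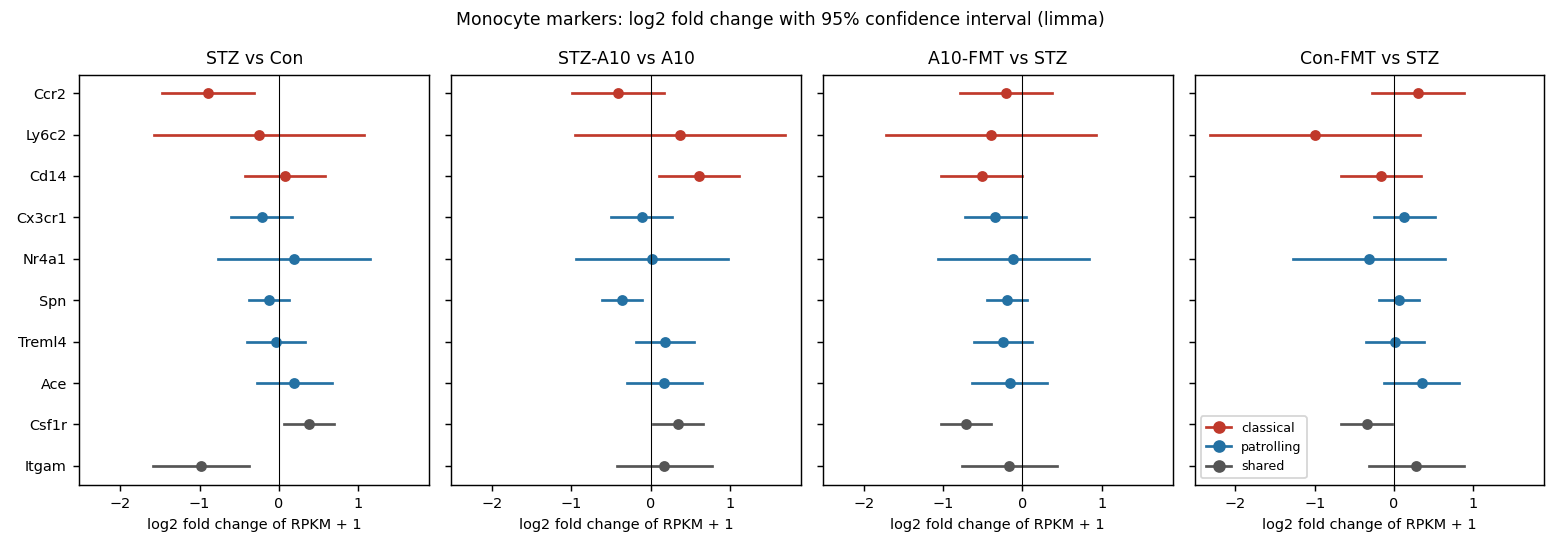
Log2 fold change of RPKM + 1 (x axis) of each marker in 4 comparisons, with points for the limma estimate, lines for the 95% confidence interval and colours for classical, patrolling and shared markers. Ccr2 and Itgam lie below 0 and Csf1r above 0 in STZ vs Con, Csf1r lies at -0.71 in A10-FMT vs STZ, and the intervals of Ly6c2 and Nr4a1 are the widest.

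The transplants were compared with STZ alone to ask how the spleens of mice given STZ differed with a transplant. The study's methods describe no sham inoculation of the STZ group. In A10-FMT against STZ, 0 of 10 members were called, against 0.00775% of the tested genes, while 2 of 10 stood at an unadjusted p under 0.05, against 17.2%, and 2 of 10 were without overlap, both lower, against 14.4% of the genes in either direction and 12.1% lower. Csf1r was lower by 0.71 (SE 0.15, adjusted p = 0.102), and Cd14 by 0.51 (SE 0.24, adjusted p = 0.289), each with all A10-FMT libraries below all STZ libraries. Csf1r was called without Con replicate 1 (adjusted p = 0.0441) and without STZ replicate 3 (adjusted p = 0.0487), within a range of 0.00152 to 0.474 over 27 alternatives. All 10 members had a negative sign, but so did the median of all tested genes, at -0.15. With each library centred on its median, 7 of 10 were negative, Csf1r was lower by 0.54 (adjusted p = 0.130) and Cd14 by 0.34.

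In Con-FMT against STZ, 0 of 10 members were called, against 0.00775% of the tested genes, and 1 of 10 stood at an unadjusted p under 0.05, against 5.24%. That member was Csf1r, lower by 0.34 (SE 0.15, adjusted p = 0.935). Itgam and Ace were the 2 of 10 without overlap, against 13.2% of the tested genes in either direction and 6.94% higher. They were higher in Con-FMT by 0.28 (95% confidence interval -0.32 to 0.89) and 0.35 (-0.12 to 0.82). Ccr2 differed by 0.30 (-0.28 to 0.89), and its Con-FMT libraries stayed below all those of Con and A10.

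The transplants compared with each other, A10-FMT against Con-FMT, gave 0 of 10 members called and 0 of 12905 genes (limma). At an unadjusted p under 0.05 stood 4 of 10 members, against 23.6% of the genes, and 6 of 10 were without overlap, against 29.3%. All of these were lower in A10-FMT, a direction in which 20.1% of the genes stood at that p and 23.9% were without overlap. Cx3cr1 was lower by 0.47 (SE 0.18, adjusted p = 0.204), Ace by 0.51 (SE 0.22, adjusted p = 0.206), Csf1r by 0.37 (SE 0.15, adjusted p = 0.204) and Spn by 0.25 (SE 0.12, adjusted p = 0.212). Ccr2 and Itgam were the others without overlap. The median of all tested genes was itself at -0.17. After median centring Cx3cr1 was lower by 0.30, Ace by 0.34, Csf1r by 0.19 and Spn by 0.08. Cx3cr1 was called when A10-FMT replicate 2 was left out, but so were 2625 genes, 20.4% of those then tested, and it was lower by 0.32 when replicate 3 of that group was left out. Without A10-FMT replicate 3, the genes at an unadjusted p under 0.05 (limma) fell from 3040 of 12905 to 464 of 12879. The breadth of the difference between the transplant groups thus rested largely on that library. Markers of other cells moved in the same comparison. All 10 T cell markers were lower at an unadjusted p under 0.05 (median -0.99), all 8 natural killer cell markers had a negative sign (median -0.55, 5 at that p), and 7 of 8 liver markers were higher at that p (median 2.27), with 0 called by limma. These counts include A10-FMT replicate 3, the extreme library of its group. The T cell markers summed to 211, 323 and 85.0 RPKM in A10-FMT, against 344 to 386 in Con-FMT. The liver markers summed to 102, 86.6 and 338 RPKM in A10-FMT, against 8.02 to 36.9 in Con-FMT. The part of these other cells in the differences of Cx3cr1 and Spn was not tested.

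A pair of pooled comparisons was added after the data had been seen. STZ averaged over the animals with and without AOS called 0 of 10 members and 3.3% of the tested genes. Csf1r was higher by 0.37 (SE 0.11, adjusted p = 0.0722) and Ccr2 lower by 0.65 (SE 0.19, adjusted p = 0.0771), and Spn lower by 0.24 (SE 0.08, adjusted p = 0.133). Csf1r was called in 6 of 27 alternatives, among them those without STZ replicate 3, STZ-A10 replicate 2 or A10-FMT replicate 3, and Ccr2 in 3, among them those without Con replicate 3 or STZ-A10 replicate 1. Of the 8 natural killer cell markers, 5 were called lower in that comparison (median of all 8 -0.64). In all, 3 of 10 members stood at an unadjusted p under 0.05, against 18.2% of the genes. The mean of both transplant groups against the mean of STZ and STZ-A10 called 1 of 10 members, against 0.674% of the tested genes, and 2 of 10 stood at an unadjusted p under 0.05, against 18.7%. Csf1r fell by 0.61 on the log2 scale (SE 0.11, adjusted p = 0.0351, 0.653-fold), from 75.3 ± 13.4 RPKM (SD, n = 6) to 48.8 ± 8.76 (SD, n = 6). Con-FMT replicate 3, at 63.2 RPKM, reached into the range of the libraries without a transplant, which began at 61.1. The call held in 13 of 27 alternatives. It was lost when only the groups compared were fitted (adjusted p = 0.0653), with the replicate number as a block (adjusted p = 0.0562) and when any of 12 single libraries was left out (Con replicate 2, each A10 library, STZ replicates 1 and 2, STZ-A10 replicates 1 and 3, A10-FMT replicates 1 and 3, and Con-FMT replicates 1 and 2). The fold change stayed between -0.69 and -0.52 over all 27. Cd14 was lower by 0.56 (SE 0.17, adjusted p = 0.119), and by 0.39 without STZ-A10 replicate 1. All 12 red pulp macrophage markers had a negative sign in that comparison (median -0.41, against -0.08 for all tested genes), 10 of them at an unadjusted p under 0.05, and 1 was called, Mertk, a receptor for dying cells (-0.62, SE 0.13, adjusted p = 0.042).

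Classical against patrolling markers were set against each other as the mean log2(RPKM + 1) of the 5 patrolling members minus that of the 3 classical ones in a library. The difference was -1.002, -0.09 and 0.75 in the Con libraries, so that Con alone spanned the whole range of the series except for Con-FMT replicate 2, at 0.81. It was 0.22, -0.03 and 0.12 in A10, 0.12, 0.35 and 0.27 in STZ, and -0.42, 0.07 and 0.03 in STZ-A10. It was 0.64, 0.27 and 0.32 in A10-FMT and 0.73, 0.81 and 0.19 in Con-FMT. The difference was above 0 in all 6 transplanted libraries and in all 3 of STZ. The group means ran from -0.11 ± 0.88 (SD, n = 3) in Con to 0.58 ± 0.34 in Con-FMT, and the SD within Con exceeded the distance between these means.

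**Figure D3:**
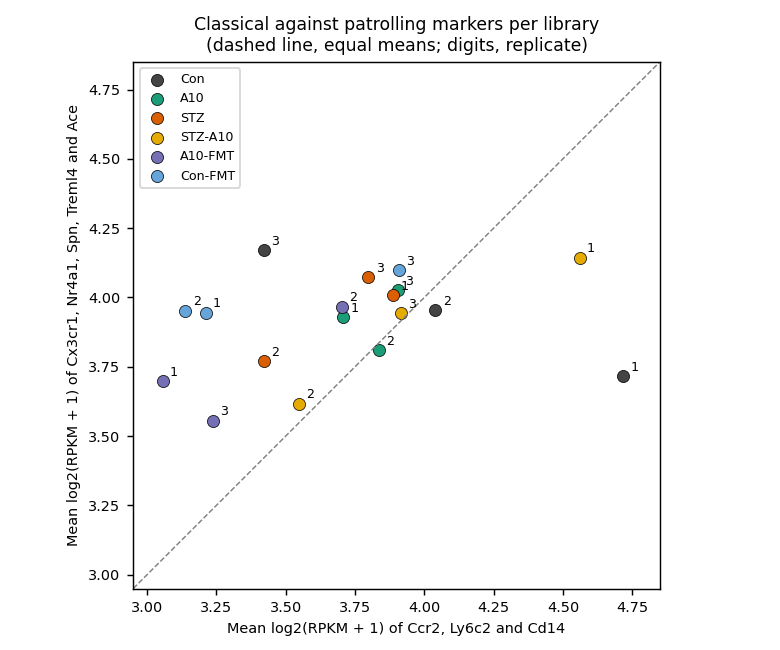
Mean log2(RPKM + 1) of Ccr2, Ly6c2 and Cd14 (x axis) against that of Cx3cr1, Nr4a1, Spn, Treml4 and Ace (y axis), a point per library, colours for groups and digits for replicates, with a dashed line where both means are equal. The Con libraries run across the plot from upper left to lower right, with replicate 3 at 0.75 above the line and replicate 1 farthest below it.

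Markers of a class were loosely related across the 18 libraries. Given as a description, over libraries that fall into 6 groups of 3 and differ in globin share, the 3 pairs of classical members had Pearson's r of 0.37 to 0.40 and the 10 pairs of patrolling members -0.09 to 0.51 (median 0.14). The closest pairs joined a classical member to a shared one. Ccr2 and Itgam had r = 0.82 (Spearman's rho 0.69, and 0.70 without the 2 libraries farthest in Ccr2, Con replicate 1 and STZ replicate 2). Cd14 and Csf1r had r = 0.81 (rho 0.68, and 0.57 without the 2 farthest in Cd14, STZ-A10 replicate 1 and A10-FMT replicate 3). Between a classical and a patrolling member r reached at most 0.66, for Cd14 and Cx3cr1 (rho 0.35). Ly6c2 and Nr4a1 ran with no other member beyond r = 0.51 and r = 0.12 in the positive direction.

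Some members ran closer to lists of other genes, monocyte genes or those of other cells, than to each other, as the plot beside summed markers shows for 4 lists. Csf1r moved with the 12 red pulp macrophage markers (r = 0.94, rho 0.92, 0.90 without the 2 farthest), none of which was at 0 in any library. Their summed level was lowest in A10-FMT (683 to 862 RPKM), followed by Con (742 to 963), A10 (862 to 1002) and Con-FMT (837 to 1076), and was highest in STZ (1045 to 1162) and STZ-A10 (976 to 1540). In STZ against Con, 12 of 12 had a positive sign (median 0.43, against -0.01 for all tested genes) and 9 an unadjusted p under 0.05. In A10-FMT against STZ 12 of 12 had a negative sign (median -0.49, against -0.15) and 7 an unadjusted p under 0.05, with 0 called by limma in either. With STZ averaged over AOS 12 of 12 had a positive sign (median 0.36) and 2 were called, Vcam1 and Mertk. Whether macrophages carried the Csf1r differences was not tested.

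Ccr2 moved with the 8 natural killer cell markers (r = 0.74, rho 0.86), whose summed level was highest in Con (105 to 129 RPKM) and A10 (101 to 149). It was lower in Con-FMT (79.3 to 99.9), STZ-A10 (53.9 to 84.9), STZ (41.3 to 69.9) and A10-FMT (37.8 to 62.5). None was at 0 in any library. All 8 had a negative sign in STZ against Con (median -0.70), 5 of them at an unadjusted p under 0.05, and 0 were called by limma. With STZ averaged over AOS, where Ccr2 was lower by 0.65, 5 of the 8 were called lower, led by Eomes (-0.69, SE 0.13, adjusted p = 0.0111). Ccr2 had the same r with the mean of the 13 other classical monocyte genes (r = 0.74, rho 0.55, 0.50 without the 2 farthest). Within groups its r was 0.82 with those genes and 0.30 with the natural killer cell markers. Its r with the natural killer cell markers was 0.72 without the 2 libraries farthest in that list. With the neutrophil markers its r was 0.65, with 0.25 without the 2 farthest and 0.71 within groups. Cx3cr1 and Spn, which natural killer and T cells also express, moved with these markers too (r = 0.71 and 0.74), and the share of those cells in the differences was not tested. Cx3cr1 had r = 0.80 with the other patrolling genes (0.72 within groups, against 0.45 for natural killer cell markers) and 0.84 with the monocyte transcription factors. Its r was about as high with endothelial markers (0.80), recruitment genes (0.80) and T cell markers (0.79, 0.65 within groups). Within groups it was 0.73 with the red pulp macrophage markers, so the patrolling list did not stand out. Spn had r = 0.43 with the other patrolling genes. Itgam was closest to the other classical genes (r = 0.93, 0.79 without the 2 farthest, 0.93 within groups). It also moved with the 14 neutrophil markers (r = 0.84, 0.19 without the 2 farthest, 0.92 within groups). The 2 farthest libraries were picked for each list. They were Con replicates 1 and 2 for the neutrophil markers, and Con replicate 1 and STZ-A10 replicate 1 for the other classical genes. The values of 0.79 and 0.19 thus cover different libraries. Nr4a1 moved with the 11 tested immediate early genes (r = 0.92, rho 0.70, 0.91 without the 2 farthest), Fosb being too low to be tested. The value without the 2 farthest still held 1 of the 3 libraries highest in Nr4a1. Ace moved with none of the lists beyond r = 0.31 in the positive direction over the 18 libraries, but within groups its r with the other patrolling genes was 0.66.

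**Figure D4:**
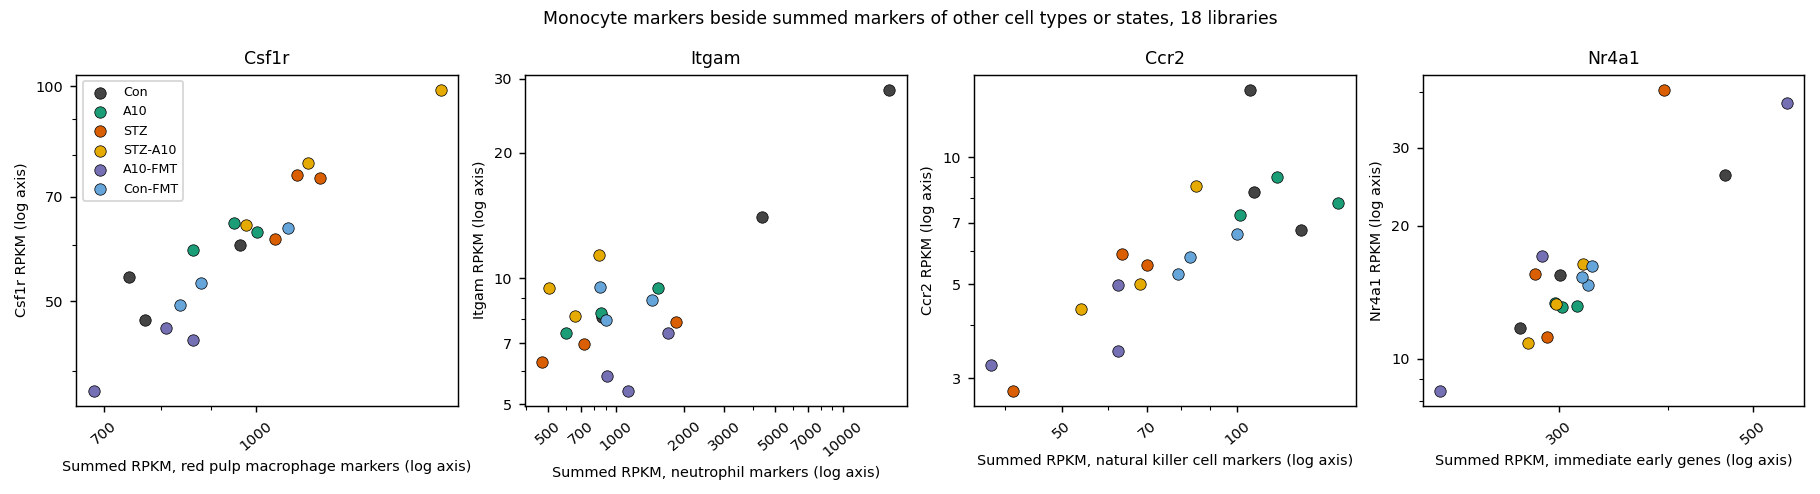
RPKM of Csf1r, Itgam, Ccr2 and Nr4a1 (y axes, log) against the summed RPKM of red pulp macrophage, neutrophil, natural killer cell and immediate early genes (x axes, log), a point per library and colours for groups. Csf1r follows its x axis across all groups, Itgam only through 2 Con libraries, and Nr4a1 through 3 libraries of 3 groups.

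The rest of the monocyte programme was followed through lists written from general knowledge. In the 8 planned comparisons, 0 of 13 other classical genes, 0 of 15 other patrolling genes, 0 of 10 tested transcription factors (Nr4a2 was too low to be tested) and 0 of 25 recruitment ligands, receptors and adhesion genes were called by limma. In STZ against Con an unadjusted p under 0.05 was reached by 2 of 13, 3 of 15, 0 of 10 and 4 of 25 of them in that order, against 11.1% of the tested genes. There, 12 of 13 other classical genes had a negative sign, with a median of -0.39 against -0.01 for all tested genes. They were led by F13a1, coagulation factor XIII (-1.45, SE 0.44, adjusted p = 0.166), Cd177, a neutrophil antigen (-1.57, SE 0.59, adjusted p = 0.292), and Ifitm6 (-1.18, SE 0.57, adjusted p = 0.466). These leaned on Con replicate 1, where the list summed to 1697 RPKM against 904 and 792 in the other Con libraries. Without it 9 of 12 tested genes had a negative sign (median -0.17, against -0.06 for all tested genes), and the differences were -0.86 for F13a1, -0.67 for Cd177 and -0.26 for Ifitm6. The 14 neutrophil markers had a negative sign in the same comparison (median -1.96, 13 at an unadjusted p under 0.05), and their part in these differences was not tested. In STZ-A10 against A10, 5 of 13 had a negative sign and the median was 0.17. The other patrolling genes had medians of -0.06 and 0.00 in these comparisons, with Ceacam1 (-1.12, SE 0.29, adjusted p = 0.0988), Pglyrp1, an antibacterial granule protein (-1.47, SE 0.44, adjusted p = 0.157), and Fabp4 (-1.65, SE 0.55, adjusted p = 0.218) leading in STZ against Con. Without Con replicate 1 these came to -0.96, -0.83 and -2.22.

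In the pooled comparisons some of these genes were called. With STZ averaged over AOS, Vcam1, the vascular adhesion molecule that also marks red pulp macrophages and stands in that list too, rose by 0.51 (SE 0.13, adjusted p = 0.0429). Fabp4, a fatty acid carrier among the other patrolling genes and abundant in fat and endothelium, fell by 1.58 (SE 0.39, adjusted p = 0.0405). In the transplants against STZ and STZ-A10, Csf1, the ligand of CSF1R, fell by 0.91 (SE 0.18, adjusted p = 0.0396). Its level was 36.6 ± 4.23 RPKM in STZ and 36.9 ± 8.53 in STZ-A10 against 16.9 ± 5.33 in A10-FMT and 21.9 ± 1.49 in Con-FMT (SD, n = 3 each). Cxcl12, the ligand that holds CXCR4-bearing cells in place, fell by 0.82 (SE 0.17, adjusted p = 0.0418). Thus the receptor Csf1r and its ligand Csf1 were both called lower in the transplanted animals. Vcam1 was lower by 0.56 (SE 0.13, adjusted p = 0.0601). Among the factors, 10 of 10 had a negative sign in that comparison (median -0.17, against -0.08 for all tested genes), led by Cebpa (-0.38, SE 0.14, adjusted p = 0.178), and none was called.

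The calls of Fabp4, Vcam1, Cxcl12 and Csf1 were lost under many alternatives. Those of Csf1 and Cxcl12 were lost with the replicate number as a block and when only the groups compared were fitted, and all 4 were lost with no filter on low values. Of 27 alternatives, the call of Fabp4 held in 15, that of Vcam1 in 13, Cxcl12 in 11 and Csf1 in 10, with adjusted p values up to 0.108, 0.107, 0.130 and 0.130. Fabp4 was lost without any of 11 libraries, namely Con replicates 2 and 3, A10 replicates 2 and 3, each STZ library, STZ-A10 replicates 2 and 3, A10-FMT replicate 1 and Con-FMT replicate 2. Vcam1 was lost without any of 13, all but Con replicate 3, STZ-A10 replicate 2, A10-FMT replicates 2 and 3 and Con-FMT replicate 3. Csf1 was lost without any of 14, all but Con replicates 1 and 3, STZ replicate 3 and A10-FMT replicate 2, and Cxcl12 without 13 of these, since it was also called without STZ-A10 replicate 2. Directions stayed, with Csf1 between -0.998 and -0.774 and Vcam1 between 0.44 and 0.59.

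The genes most like the members in pattern over the 18 libraries, among 9362 with a mean of at least 5 RPKM, are named as a description. Csf1r was close to Ifngr1 (r = 0.95), a chain of the interferon gamma receptor, and Ptpn22. Itgam was closest to Pygl (r = 0.94), Sort1 and Mmp9, the gelatinase of neutrophil granules. Nr4a1 was closest to Ier2 (r = 0.87), Tgif1 and Cyr61, of which Ier2 and Cyr61 are immediate early genes. Ccr2 was closest to Rab27a (r = 0.93), Skap2 and Ppif, and Cd14 to Ninj1 (r = 0.92), Xdh and Fcgr3. Cx3cr1 was closest to Dctn1 (r = 0.93), Vat1 and Grn, and Spn to Dnajc13 (r = 0.89), Mcmbp and Atg5. Ly6c2 was closest to I830127L07Rik (r = 0.82), Gsr and Atp6v1b2, and Treml4 to Erlin2 (r = 0.83), Nsd3 and Snx14. Ace had no gene above r = 0.69, which was Chchd4, before Nsun5 and Tprn.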

How the data were processed

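Spleen mRNA of 18 libraries was read on an Illumina HiSeq. The deposited values are RPKM, made by the authors from reads mapped to reference genes. The submitters' processing notes name Bowtie 0.12.2 and the mm10 build, whereas the study's methods name SOAPaligner. Reads shared by close copies could be divided either way, and a gene taking many reads, such as a globin, lowers the RPKM of the rest. Of 19326 lines, 6 with 3 repeated names were dropped. Groups were taken from the treatment labels.

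RPKM was transformed to log2(RPKM + 1), genes with at least 1 RPKM in at least 3 libraries were kept, and limma 3.58.1 with a trended prior (R 4.3.3) was fitted to all 18 libraries with a coefficient per group. P-values are two-sided. The script was tested on simulated data. The members and lists were chosen with earlier results of these data known. Fold changes are printed for members at an unadjusted p under 0.05 and for the 3 genes of lowest p of other lists, others by their range or where named for a pattern. Gene positions are from GENCODE M21 and promoters from RefSeq (GRCm38.p6). The 27 alternatives were a pseudocount of 0.1, no filter, 1 RPKM in every library, quantile normalization, median centring, no trend, only the groups compared, a replicate block, array weights and the omission of each library. Results of some listed genes are not reported here.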

Additional observations from a re-analysis of the deposited data

How the results depend on the processing

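Array weights, which down-weight the more variable libraries, changed the number of members called most, to 3 in STZ against Con (Ccr2, Csf1r and Itgam), 2 in STZ-A10 against A10, 1 in A10 against Con, 2 in A10-FMT against STZ, 2 in Con-FMT against STZ, 6 in A10-FMT against Con-FMT, 5 with STZ averaged over AOS and 2 in the transplants against no transplant, where all tested genes called rose to 3716, 1791, 1327, 2145, 2360, 6068, 4969 and 3175. With 3 libraries a group the weights are themselves uncertain. Quantile normalization and median centring each called 1 member, Csf1r, with STZ averaged over AOS (with 689 and 659 genes in all), and fitting only the groups compared called 0 in the transplants against no transplant. Leaving out single libraries gave 0 to 1 members called in STZ against Con (1 without Con replicate 3, with 125 genes in all), in A10-FMT against STZ (1 without Con replicate 1 and 1 without STZ replicate 3, with 83 and 87 genes) and in A10-FMT against Con-FMT (1 without A10-FMT replicate 2, with 2625 genes), and 0 to 2 with STZ averaged over AOS (2 without Con replicate 3, with 445 genes) and in the transplants against no transplant (2 without STZ-A10 replicate 2, with 87 genes).

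Whether the replicate numbers pair the samples is not settled. In no comparison did all 3 same-numbered pairs deviate together with a correlation above 0.1, but the values were 0.57, 0.04 and 0.43 in STZ-A10 against STZ. With 3 libraries a group, such correlations cannot decide it. With the replicate number as a block, 0 members were called in the transplants against no transplant, and the other comparisons called 0 as before. No fold change of a member at an unadjusted p under 0.05 changed sign under any of its alternatives. Every patrolling-minus-classical difference moved by less than 1 SD, but this is hardly a check. Leaving out a library of 3 cannot move a group mean by 1 SD. Median centring shifts both marker means of a library alike. Without read counts, the depth behind low values such as those of Ccr2 and Cx3cr1 is unknown.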
